A study of Sus scrofa with 6 samples.

Results

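AP-1 is a family of transcription factors built as dimers of FOS, JUN and ATF type subunits. The genes followed here were FOS, FOSB, FOSL1 and FOSL2 of the FOS family, JUN, JUNB and JUND of the JUN family, and ATF3 and BATF3 of the ATF and BATF families. Of these 9 genes, 8 were matched by symbol to an identifier of the deposited count table, which holds 35670 identifiers, and JUND was not analysed here. Of the 8, 7 had enough reads to be tested among 14242 genes, and BATF3 is given by its reads only. RNA was sequenced from pig (Sus scrofa) granulosa cells, which line the ovarian follicle and nurse its oocyte. They had been aspirated from small follicles and grown as primary cultures in medium with serum. The heat group was held at 42 °C for 6 h (n = 3) and the control group at 37 °C for the same 6 h (n = 3), and the cells of both groups were detached with trypsin at harvest. The labels name no strain, sex or age of the pigs. They call the samples biological replicates without naming separate animals or flasks, so the p-values measure only the spread between these samples.

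FOS proteins do not pair with each other and bind DNA as partners of JUN proteins, while JUN proteins can also pair among themselves. FOS, FOSB, JUN, JUNB and ATF3 are immediate early genes: in many cells their RNA rises within minutes of serum, growth factors or stress and decays quickly, whereas FOSL1 and FOSL2 (also called FRA1 and FRA2) rise later and last longer. FOS and FOSB carry strong activation domains that FOSL1 and FOSL2 lack, ATF3 often represses, and JUNB activates many JUN targets less strongly than JUN does. In granulosa cells, AP-1 subunits are known as part of the response to gonadotropins before ovulation.

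The deposited counts summed to between 18711440 and 29606378 per library. Libraries within a group were not equally alike: across genes, log2 CPM (counts scaled to the TMM-adjusted library total) correlated at 0.990 between control 2 and control 3 and at 0.991 between heat 1 and heat 2, but control 1 reached only 0.901 and 0.905 with the other controls and heat 3 only 0.916 and 0.909 with the other heat libraries. Results that rest on these libraries are given with and without them. The label of the cells was only partly borne out by the granulosa markers. The inhibin subunit gene INHBA lay between 154 and 387 CPM, but FSHR, the receptor for follicle-stimulating hormone, lay at 2.14 CPM or below, INHA at 0.306 CPM or below and AMH at 0.279 CPM or below in every library. Of the other matched genes on that list, CDH2 lay between 210 and 850 CPM, FST between 8.47 and 54.4, NR5A2 between 7.76 and 14.3 and INHBB between 2.45 and 10.2 CPM, and HSD17B1 at 0.418 CPM or below. GATA4 lay between 9.56 and 38.3 CPM in controls and between 66.1 and 82.1 CPM in heat, and none of the 6 tested granulosa markers was called. FOXL2 and CYP19A1 were not analysed here. Heat and control were compared by edgeR's quasi-likelihood test, in which 11.0% of the 14242 genes passed at an adjusted p below 0.05, 6.71% higher and 4.32% lower in heat.

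FOSL2 and FOSB rose in heat with all 6 libraries, and the other 5 tested subunits did not pass. Both calls were lost when control 2, control 3, heat 1 or heat 2 was left out (edgeR adjusted p from 0.133 to 0.154) and when the near-identical libraries were summed (0.326 and 0.217). FOSL2 read 46.0, 32.1 and 36.3 CPM in control 1, 2 and 3 and 124, 133 and 150 CPM in heat 1, 2 and 3. Each group was tight and the groups lay far apart, and the libraries that stand apart elsewhere sat with their own groups here. FOSL2 thus went from 38.1 ± 7.13 to 136 ± 13.1 CPM (SD, n = 3), a log2 fold change of 1.83 ± 0.30 (SE) with a 95% interval of 1.14 to 2.52 and an edgeR adjusted p of 0.0276. By p-value it ranked 129 among the 14242 genes. The gene lies on chromosome 3 at 110820403 to 110842903 (Sscrofa11.1, RefSeq).

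FOSB was near the detection limit in controls, with 1, 0 and 3 reads in control 1, 2 and 3, and had 27, 31 and 36 reads in heat 1, 2 and 3. As CPM these were 0.0668, 0 and 0.149 in controls and 1.35, 1.44 and 1.10 in heat, so the groups did not overlap. Over the groups, 4 reads stood against 94, a ratio of 18.4 after scaling to library totals, and counting error alone allows 6.94 to 68.8 (95% interval). The fitted log2 fold change was 4.10 ± 0.80 (edgeR adjusted p = 0.0325), a value that depends on the prior count because of the near-empty controls. FOSB met the read minimum for testing only through the heat group, so it could enter the test only by differing, and it adds nothing as a count of subunits that rose. FOSB lies on chromosome 6 at 51836780 to 51844531.

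**Figure D1:**
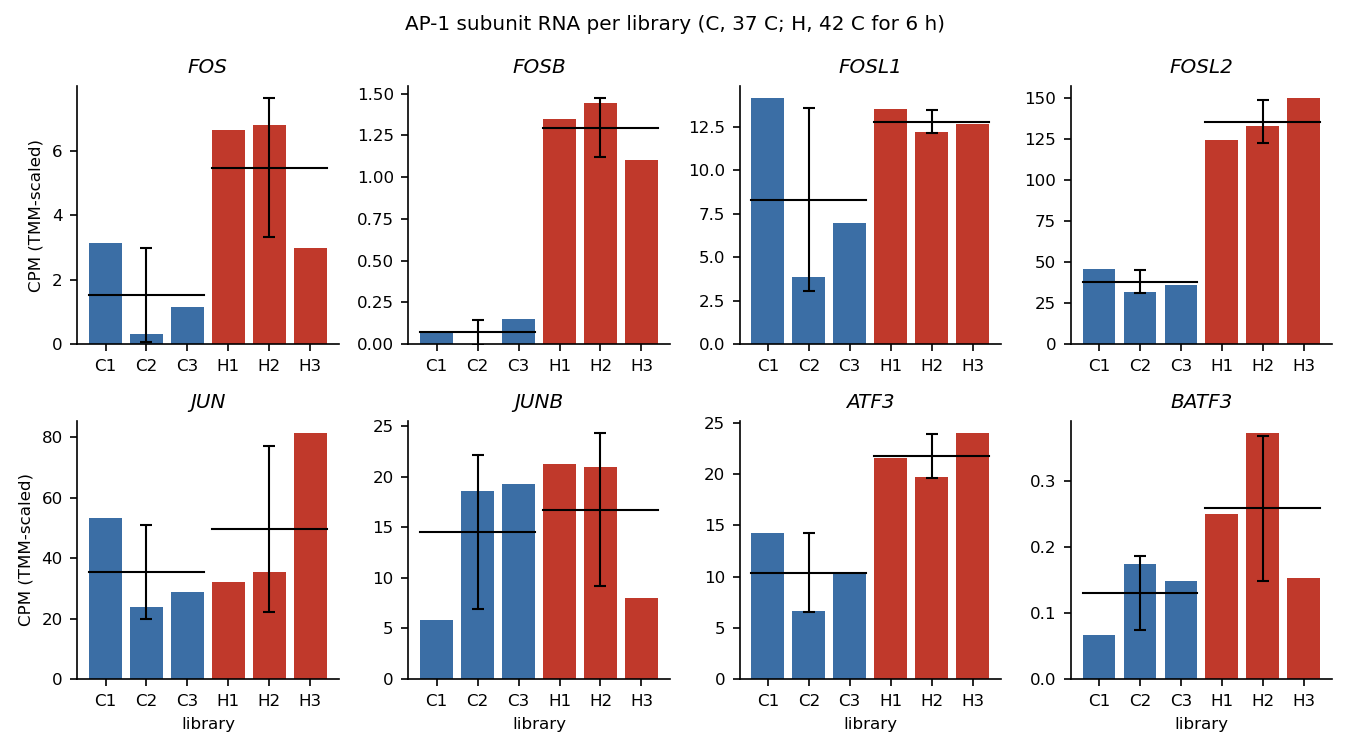
Bars give TMM-scaled CPM of each AP-1 subunit in control libraries C1 to C3 (37 °C, blue) and heat libraries H1 to H3 (42 °C, red); black lines and error bars are group means and SD, and each panel has its own axis from 0. FOSL2, FOSB and ATF3 lie higher in every heat library than in any control, while JUN is highest and JUNB lowest in C1 and H3.

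ATF3 was the third subunit whose heat libraries all lay above the controls, but it did not pass. Its controls read 14.3, 6.59 and 10.2 CPM (control 1, 2 and 3) and its heat libraries 21.5, 19.7 and 24.0 CPM (heat 1, 2 and 3). The highest control was control 1, and the means were 10.4 ± 3.85 and 21.7 ± 2.15 CPM. The log2 fold change was 1.07 ± 0.35, with a 95% interval of 0.27 to 1.88 and an edgeR adjusted p of 0.0777. ATF3 passed without control 1 (1.35 ± 0.29, edgeR adjusted p = 0.0210) and with DESeq2 on all libraries (1.02 ± 0.40, adjusted p = 0.0407), which called 27.5% of all genes. Of all tested genes, 20.9% had every heat library above every control, against 3 of the 7 tested subunits, FOSB among them. ATF3 lies on chromosome 9 at 130772259 to 130829678, and BATF3, the neighbouring member, lies 60539 bases away at 130699092 to 130711719. BATF3, a partner of JUN proteins best known from dendritic cells, had 1, 4 and 3 reads in controls and 5, 8 and 5 in heat. Scaled to library totals, the 18 heat reads stood at 1.76 times the 8 control reads, with a 95% counting interval from 0.727 to 4.67.

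For FOS and FOSL1, control 1 lay as high as at least 1 heat library. FOS, the classical rapid responder, read 3.14, 0.306 and 1.14 CPM in control 1, 2 and 3 and 6.63, 6.79 and 2.99 CPM in heat 1, 2 and 3. Control 1 thus lay just above heat 3, and the other libraries separated by group. From 77 control and 377 heat reads in all, the log2 fold change was 1.86 ± 0.77 (edgeR adjusted p = 0.134), and it was 2.90 ± 0.70 without control 1 (edgeR adjusted p = 0.0278). FOSL1 stood at 14.2, 3.84 and 6.99 CPM in controls and at a narrow 13.5, 12.2 and 12.7 CPM in heat. Control 1 was the highest of all libraries for this gene. The log2 fold change of FOSL1 was 0.62 ± 0.47 with all libraries (95% interval -0.46 to 1.71, edgeR adjusted p = 0.367) and 1.22 ± 0.33 without control 1 (edgeR adjusted p = 0.0381). The summed level of 7 stromal markers, 6 of them tested and none called, was likewise highest of the controls in control 1, at 33382 CPM against 4603 and 3959 CPM in control 2 and 3. Within heat it was 46295, 42056 and 13455 CPM while FOSL1 stayed level. COL1A1 and COL3A1 made up nearly all of the sum, TCF21 was no more than 0.467 CPM in any control, and DPT was at 0 in all controls and in heat 2. The part of these cells in the FOSL1 and FOS values was not tested.

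JUN and JUNB did not pass, and for both genes the groups overlapped. JUN, the main partner of FOS proteins, read 53.1, 23.9 and 28.9 CPM in control 1, 2 and 3 and 32.1, 35.4 and 81.3 CPM in heat 1, 2 and 3. Its highest libraries were heat 3 and control 1, one from each group. The means were 35.3 ± 15.6 and 49.6 ± 27.5 CPM, and the log2 fold change was 0.49 ± 0.48 with a 95% interval of -0.62 to 1.60 (edgeR adjusted p = 0.486). JUNB stood at 5.81, 18.6 and 19.2 CPM in controls and at 21.2, 21.0 and 8.01 CPM in heat. Here control 1 and heat 3 were the lowest libraries. The log2 fold change of JUNB was 0.20 ± 0.55 with a 95% interval of -1.07 to 1.47 (edgeR adjusted p = 0.816). Each sign turned when 1 library was left out: without heat 3 JUN was -0.084 ± 0.39, and without control 1 JUNB was -0.20 ± 0.45. With control 1 and heat 3 both left out, JUN was 0.33 ± 0.13 and JUNB 0.14 ± 0.13. JUN was called in that fit and JUNB was not, with 79.6% of all genes called. The intervals of both genes still allow changes as large as that of ATF3. JUN lies on chromosome 6 at 153686425 to 153687635 and JUNB on chromosome 2 at 66214086 to 66219435. No other RefSeq gene overlaps the annotated span of any of the 9 genes.

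The make-up of each pool was taken as shares of its reads within a library, which no scaling between libraries can alter. Reads also depend on transcript length, which was not corrected for, so a share is not the share of RNA molecules and only its change between libraries is read. FOSL2 took 72.6, 88.6 and 81.4% of the FOS family reads in controls (1, 2 and 3 in order) and 85.2, 86.7 and 89.9% in heat libraries. The ranges overlapped, since control 2 had a higher share than heat 1 and heat 2. FOSL1 took 22.3, 10.6 and 15.7% in controls and 9.28, 7.97 and 7.59% in heat, so its share was lower in every heat library although its CPM was not. For control 2, the control nearest to heat, the 95% Wilson interval of the FOSL1 share was 8.69 to 12.9%, which overlaps the 8.28 to 10.4% of heat 1. FOSB went from 1 of 949, 0 of 830 and 3 of 900 family reads in controls to between 0.660 and 0.940% in heat. The 0 of 830 reads allows a share of up to 0.361% by the limit of 3 reads, and 0.461% is the upper end of its 95% Wilson interval. FOS itself took 4.95, 0.843 and 2.56% in controls and 4.55, 4.43 and 1.80% in heat, with no order by group. As group means, FOSL1 went from 16.2 ± 5.89 to 8.28 ± 0.884% and FOSB from 0.146 ± 0.170 to 0.841 ± 0.157%. Heat minus control for the FOSL1 share was -7.92 percentage points, -4.85 without control 1 and -4.51 without control 1 and heat 3, and for the FOSL2 share it was 6.42, 2.29 and 0.954. The FOSL1 and FOSB shares each gave a two-sided exact permutation p of 0.1, the smallest that 3 against 3 libraries allow, and 0.3 after adjustment over 6 shares.

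The JUN pool differed most between libraries of the same group. JUN took 90.1% of the JUN and JUNB reads in control 1 and 91.0% in heat 3, with 95% Wilson intervals of 88.0 to 91.9% and 89.9 to 92.0%. Its share in the other 4 libraries was 56.3% for control 2, 60.0% for control 3, 60.2% for heat 1 and 62.8% for heat 2, with intervals that lay between 53.2 and 65.5%. The intervals, like those of all shares, cover counting error only. Group means of 68.8 ± 18.5 and 71.3 ± 17.1% did not differ beyond their spread (two-sided exact permutation p = 0.5, 0.6 adjusted over 6 shares). Control 1 held 18736652 counts, close to the 18711440 of control 3, and heat 3 held the most, 29606378. The part of depth in the split was not tested.

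**Figure D2:**
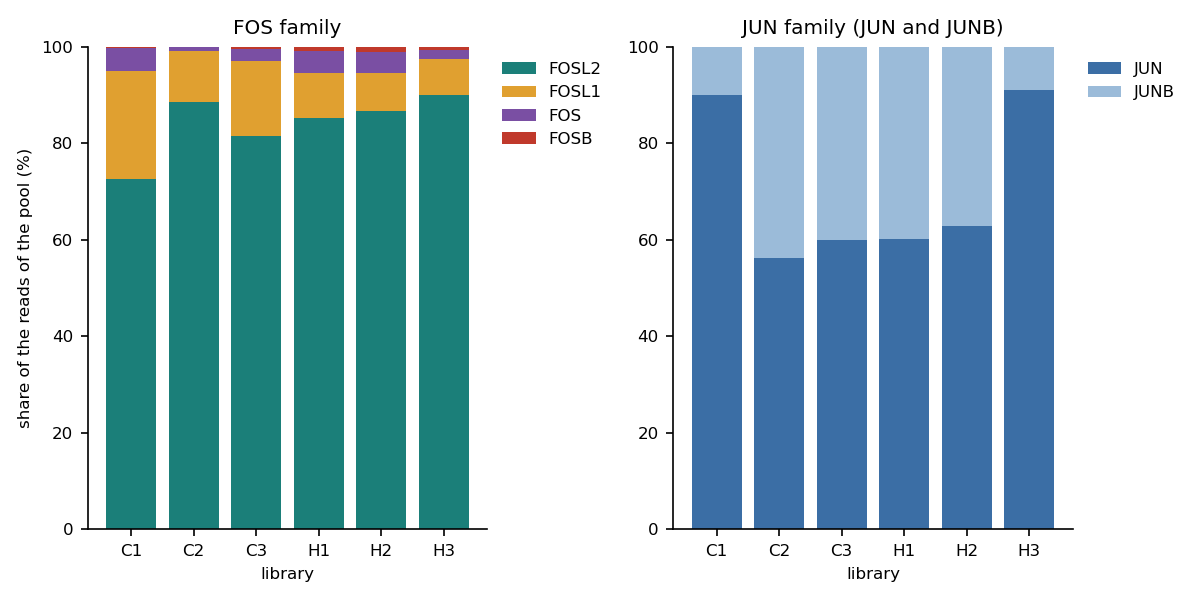
Stacked bars give the share of each subunit, in percent, of the reads of the FOS family (left) and of JUN plus JUNB (right) in control libraries C1 to C3 and heat libraries H1 to H3. FOSL2 holds between 72.6 and 89.9% of the left pool throughout, and the right pool is about 9 to 1 in C1 and H3 but closer to 6 to 4 in the other 4 libraries.

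Relative to JUN plus JUNB, the FOS family as a whole was higher in every heat library than in any control. JUND, a further gene of the JUN family, was not analysed and is not in the ratio. Summed over its 4 genes, the FOS family stood at 63.4, 36.2 and 44.6 CPM in controls and at 146, 153 and 167 CPM in heat. JUN plus JUNB stood at 58.9, 42.5 and 48.1 CPM in controls and at 53.4, 56.4 and 89.3 CPM in heat, where the groups overlapped. The log2 ratio of FOS family to JUN plus JUNB reads was 0.11, -0.23 and -0.11 in the controls, in order, against 1.45, 1.44 and 0.90 in the heat libraries. The 3 heat libraries lay above the 3 controls, with means of -0.08 ± 0.17 and 1.26 ± 0.32. Most of these family reads were from FOSL2, so the ratio is not separate evidence from the FOSL2 result. FOSL2 against JUN alone gave log2 ratios of -0.21, 0.42 and 0.33 in controls and 1.95, 1.91 and 0.88 in heat, again without overlap. FOSL2 was also higher relative to FOSL1, with log2 ratios of 1.70, 3.06 and 2.38 in controls and 3.20, 3.44 and 3.57 in heat. Both ratios use the same FOSL2 reads, and the ratio to FOSL1 largely restates the FOSL1 share above, so neither is separate evidence. Each of these 3 ratios gave a two-sided exact permutation p of 0.1, the smallest possible, and 0.225 after adjustment over 9 pool sums and ratios. FOSL2 against JUNB alone was 2.99, 0.79 and 0.92 in controls and 2.55, 2.66 and 4.23 in heat. These groups overlapped because of control 1 (two-sided exact permutation p = 0.3). ATF3 against JUN, at -1.89, -1.86 and -1.50 in controls and -0.58, -0.84 and -1.76 in heat, overlapped because of heat 3. JUN against JUNB was 3.19 in control 1 and 3.34 in heat 3, and between 0.37 and 0.75 in the remaining libraries.

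**Figure D3:**
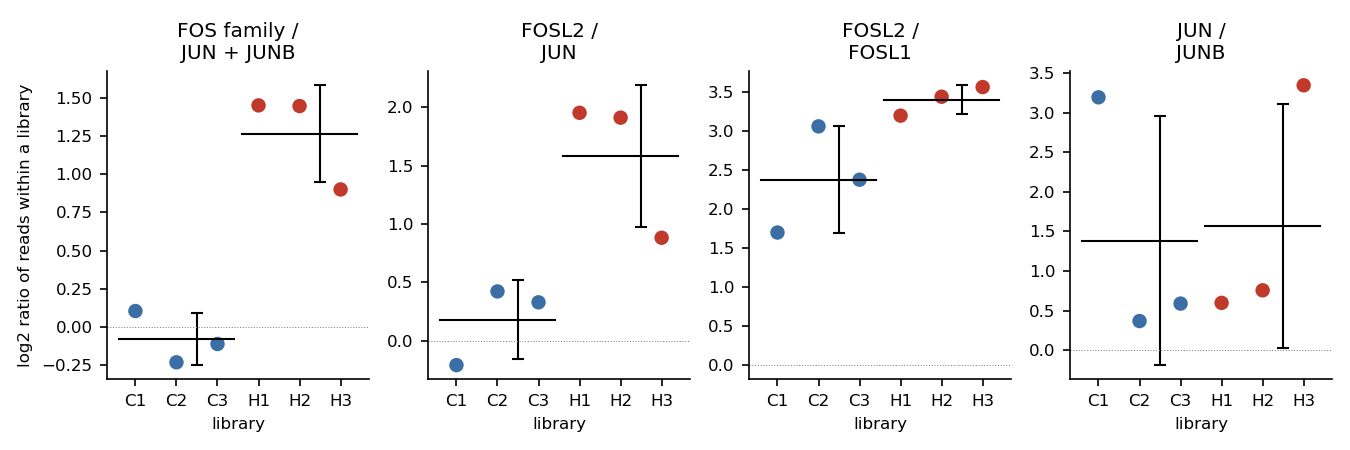
Points are log2 ratios of reads within each library, blue for controls and red for heat, with group means and SD in black; each panel has its own axis. The first 3 ratios separate the groups, while JUN over JUNB separates C1 and H3 from the other libraries.

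The calls depended on which libraries were used. FOSL2 and FOSB were both called without control 1 (5 of 7 subunits, against 31.9% of all tested genes) and without heat 3 (2 of 7, against 36.1%). Without control 2 or control 3 no subunit and no gene passed by edgeR, and without heat 1 or heat 2 no subunit passed, with 0.0475% and 0.0406% of all genes called. At an unadjusted edgeR p below 0.05 these 4 fits held, in the order given, 2, 2, 3 and 3 of 7 subunits. Over all tested genes they held 3165 of 15026, 3303 of 15013, 3159 of 14752 and 3256 of 14771. In these 4 fits the log2 fold change of FOSL2 lay between 1.69 and 1.88 (edgeR adjusted p from 0.136 to 0.149) and that of FOSB between 3.44 and 5.26 (edgeR adjusted p from 0.133 to 0.154). With control 2 and 3 summed and heat 1 and 2 summed, the near-identical pairs each counted once, FOSL2 stood at 1.76 ± 0.63 and FOSB at 4.08 ± 1.19 (edgeR adjusted p = 0.326 and 0.217), and 0.0129% of genes passed. Without both control 1 and heat 3, 6 of 7 subunits were called, but so were 79.6% of all genes, in 2 against 2 near-identical libraries.

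**Figure D4:**
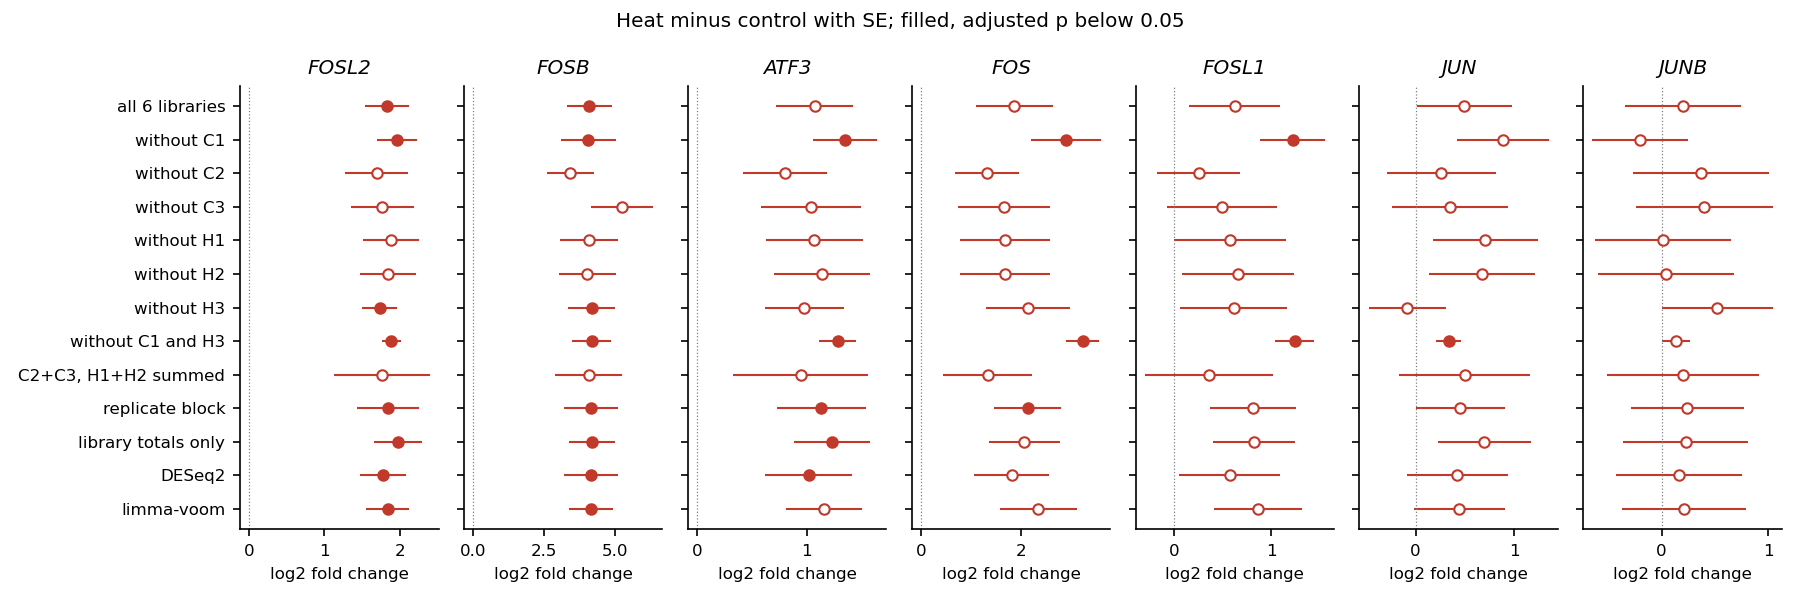
Points are log2 fold changes, heat minus control, with SE for the 7 tested subunits under 13 settings; filled points passed an adjusted p below 0.05 and each panel has its own axis. FOSL2 stays between 1.69 and 1.96 when 1 library is left out and FOSB spans 3.44 to 5.26, both calls are lost without C2, C3, H1 or H2, and JUN and JUNB cross 0.

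Markers of other cells differed between the groups as well. Over all tested genes, 6.71% were called higher and 4.32% lower in heat. The ovarian surface epithelium list (4 of 6 genes matched, 3 tested, 2 higher) summed to between 2.01 and 5.47 CPM in controls and between 10.3 and 13.9 CPM in heat, with its keratin KRT18 at 0 in control 2 and 3 and below 1 CPM elsewhere. On that list UPK3B and LHX9 met the read minimum only through the heat group, so its count of higher genes adds nothing. The oocyte list (4 genes, 2 tested, 1 higher) summed to between 6.25 and 7.68 CPM against 9.93 to 20.2 CPM, with ZP3 at 0 throughout. The leukocyte list (7 genes, 3 tested, 1 lower) summed to between 3.34 and 64.0 CPM in controls, highest in control 2 and 3, and between 1.31 and 4.34 CPM in heat, with PTPRC at 0 in control 1 and in every heat library. Theca markers (5 of 6 matched, 2 tested, none called) summed to between 3.00 and 6.30 CPM and between 6.28 and 9.14 CPM, with INSL3 at 0. Endothelial and smooth muscle sums overlapped between groups, at 7.95 to 9.67 against 5.26 to 10.8 CPM and at 8039 to 9402 against 5899 to 12003 CPM. The part of these cells in the FOSL2 and FOSB values was not tested, and in such bulk samples a change in the number of cells of a type cannot be told apart from a change in RNA per cell.

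The genes most like each subunit over the 6 libraries were found by Pearson correlation of log2 CPM among 9744 other genes. These values describe 6 points that share the same 2 groups and the same near-identical pairs. FOSL2 was closest to ASB1, a SOCS-box protein gene, at 0.9999, and to TENT5C at 0.998, and FOSB was closest to BCAR1 at 0.998. ATF3 was closest to USF2 at 0.997. For subunits that followed control 1 or the library split, the closest genes were TRIM66 for FOS (0.998), WIPF3 for FOSL1 (0.992), the kinase gene LYN for JUN (0.995) and MID1IP1 for JUNB (0.996).

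AP-1 belongs to a wider class, the basic leucine zipper genes. Of 22 others tested, 2 rose, 1 fell and 19 did not pass, 13.6% called against 11.0% of all genes, and their median log2 fold change was 0.55 against 0.05 over all genes. JDP2, a repressor that pairs with JUN proteins, rose from 9.79 ± 2.38 to 27.1 ± 7.36 CPM, and its heat libraries (31.3, 31.3 and 18.6 CPM) all lay above its controls (12.3, 9.56 and 7.54 CPM). MAF rose from 0.746 ± 0.0536 to 2.91 ± 0.940 CPM. NFE2L2, the antioxidant regulator NRF2, fell from 226 ± 48.4 to 84.3 ± 11.3 CPM. With scaling to library totals only, 4 of the list were called higher and 0 lower, and NFE2L2 was not called (edgeR adjusted p = 0.0526). By edgeR the adjusted p of these 3 genes was 0.0390 to 0.0416.

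Upstream of AP-1, MAP kinases phosphorylate JUN and the factors that act on the FOS promoter. Of 23 tested genes of this cascade, 2 rose, 1 fell and 20 did not pass, 13.0% called, with a median log2 fold change of 0.26. MAPK11, the beta form of p38, rose from 0.875 ± 0.348 to 5.24 ± 2.96 CPM, with 6.83, 7.07 and 1.83 CPM in heat 1, 2 and 3. MAP2K3, a kinase that activates p38, rose from 12.1 ± 2.60 to 32.5 ± 10.6 CPM. The neuronal JNK gene MAPK10 fell from 1.41 ± 0.279 to 0.419 ± 0.0700 CPM, with 26, 29 and 25 reads in controls and 7, 9 and 16 in heat. MAPK10 met the read minimum only through the control group, so it adds nothing as a count of genes that fell. By edgeR the adjusted p of these 3 genes was 0.0424 to 0.0483. The MAPK10 call was lost with scaling to library totals only (0.0569), with no read minimum (0.0986), with the replicate block (0.0747), with limma-voom (0.0559) and with limma on the deposited signal (0.0509 and 0.0532). The MAPK11 call was also lost with limma-voom (adjusted p = 0.0701). Scaling to library totals only and the block each called 4 genes of the list higher and 0 lower. Among SRF, its cofactors and related regulators, 1 of 12 rose, 8.33% called, with a median log2 fold change of 0.52. This was MEF2D, a factor that acts on the JUN promoter, at 11.8 ± 3.29 against 40.7 ± 10.6 CPM (log2 fold change 1.79 ± 0.36, edgeR adjusted p = 0.0339). SRF itself stood at 8.88, 6.42 and 8.98 CPM in controls and at 8.98, 9.72 and 20.0 CPM in heat and did not pass (edgeR adjusted p = 0.255).

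None of 12 genes that control the stability of AP-1 RNA or protein passed by edgeR, and DESeq2 called 1 and limma-voom 0. By edgeR, 3 of the 12 had an unadjusted p below 0.05, against 4832 of the 14242 tested genes. The members with the highest means were ZFP36L1, which promotes decay of AU-rich RNAs, at 212 ± 120 against 468 ± 59.1 CPM, and CNOT7, a subunit of the deadenylase that shortens poly(A) tails, at 127 ± 42.5 against 92.5 ± 45.5 CPM. Of 22 tested genes with known AP-1 sites in their control regions, 2 rose, 3 fell and 17 did not pass, 22.7% called, with a median log2 fold change of 0.69. The heme-degrading enzyme HMOX1 and the cytokine IL11 rose, by 4.08 ± 0.68 and 3.61 ± 0.60 on the log2 scale. IL11 had 3, 6 and 1 reads in controls and 37, 46 and 80 in heat, and met the read minimum only through the heat group. The chemokines CCL2 (-4.53 ± 0.57) and CXCL8 (-2.66 ± 0.44) and the cytokine LIF (-2.40 ± 0.41) fell (edgeR adjusted p from 0.0266 to 0.0276 for the 5 genes). LIF went from 33.8, 14.9 and 16.2 CPM in controls to 4.14, 3.44 and 4.65 CPM in heat. The matrix protease gene MMP1 and the urokinase gene PLAU, both textbook AP-1 targets, did not pass, at 3.04 ± 1.32 against 1.24 ± 0.863 CPM and 48.5 ± 32.0 against 59.5 ± 26.2 CPM. Without control 2, control 3, heat 1 or heat 2, edgeR called 0 genes of these 5 lists, and 0 to 7 genes of a list (12 to 23 tested) had an unadjusted p below 0.05. In these fits 3159 to 3303 of 14752 to 15026 tested genes had such a p. Without control 1 edgeR called 7, 6, 5, 3 and 14 in the order given, against 31.9% of all genes. Without heat 3 it called 7, 7, 4, 3 and 5, against 36.1%. Both fits tested 22, 23, 12, 12 and 23 genes of the lists.

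**Figure D5:**
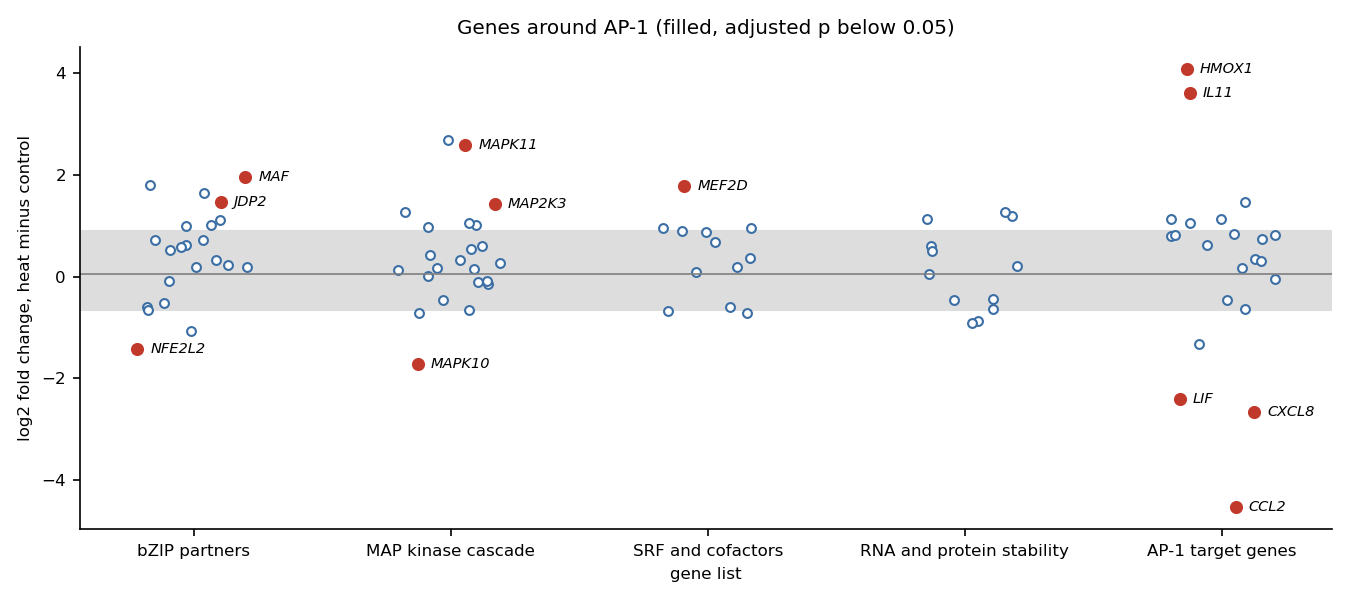
Points are log2 fold changes, heat minus control, of the tested genes of 5 lists around AP-1, with genes at an adjusted p below 0.05 filled and named; the grey band spans the middle 50% of all 14242 genes and the grey line is their median of 0.05. Called genes lie on both sides of 0 in the partner, kinase and target lists, but the lower calls of the first 2, NFE2L2 and MAPK10, are lost with scaling to library totals only. MAPK10 met the read minimum only through the control group.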

How the data were processed

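Libraries were stranded mRNA libraries read from both ends, per the labels, and the submitters' processing notes name FastQC 0.11.4, Trim Galore, STAR and Sscrofa11.1. For the counting tool and annotation release the sources used here give nothing. The authors deposited raw read counts per Ensembl gene, and a normalized signal for 13298 genes, which equals the deposited counts divided by 1 size factor per library. Multiplying back gave whole reads for 100% of values (tolerance 1e-06), on which edgeR called 1673 genes, an alternative chosen after seeing the data. Members were matched by symbol through a reference table, and coordinates are those of RefSeq.

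The counts were tested with edgeR 4.0.16 in R 4.3.3 (filterByExpr with a minimum count of 10, TMM, robust quasi-likelihood F test, two-sided), and p-values were adjusted by Benjamini-Hochberg over all tested genes and called below 0.05. The SE is the size of the log2 fold change over the root of F, and the 95% interval uses the residual plus prior degrees of freedom. CPM are counts scaled to TMM-adjusted library totals. Pool shares were planned per kilobase, but no transcript lengths were used here, so reads were taken. Shares and ratios were compared by an exact permutation test, with 95% Wilson intervals for shares. The alternatives were 3 other scalings, 2 other filters, the replicate number as a block, libraries left out or summed, DESeq2 1.42.0, limma-voom (limma 3.58.1) and limma on log2 of the deposited signal with pseudocounts of 1 and 0.5. The test was checked on simulated data. The members and lists were chosen with earlier results of these data known. Genes were named by a rule: all members, up to 4 called genes per list by absolute log2 fold change or, with none called, the 2 of highest mean, and the 2 genes most like each member (mean log2 CPM of at least 1), not all of which are printed. SRF, MMP1 and PLAU were named after their values were seen, as were the markers. Results for 2 genes of the lists are not reported here, and both are left out of the lists' counts. No sequences are printed.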

Additional observations from a re-analysis of the deposited data

How the results depend on the processing

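Every tested subunit was higher in heat with all libraries and under each scaling, filter and tool tried, and the 2 reversals of a fold change came from leaving out a library (JUN at -0.084 without heat 3, JUNB at -0.20 without control 1). Leaving out 1 library gave log2 fold changes of 1.69 to 1.96 for FOSL2, 3.44 to 5.26 for FOSB, 0.80 to 1.35 for ATF3, 1.33 to 2.90 for FOS, 0.25 to 1.22 for FOSL1, -0.084 to 0.88 for JUN and -0.20 to 0.52 for JUNB. It gave 0 to 5 called subunits of 7 and 0 to 5530 called genes (0 to 36.1%). Called list genes were 0 to 7 of 22 bZIP partners, 0 to 7 of 23 MAP kinase genes and 0 to 5 of 12 SRF cofactors. They were 0 to 3 of 12 stability genes and 0 to 14 of 22 or 23 AP-1 targets. Heat minus control then ranged from -0.16 to 1.89 percentage points for the FOS share, from -7.34 to 13.2 for the JUN share and from -13.2 to 7.34 for the JUNB share. The JUN share reversed without control 2 (-3.75, JUNB 3.75), without control 3 (-1.89, JUNB 1.89) and without heat 3 (-7.34, JUNB 7.34), the log2 ratio of JUN to JUNB with it (-0.32, -0.21 and -0.71; range to 1.09), and the FOS share (-0.16) and the log2 ratio of FOS to FOSL2 (-0.29; range to 1.13) without control 2.

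Without both control 1 and heat 3, 12142 genes (79.6%) and 6 of 7 subunits were called. Among them were FOS (3.23), FOSL1 (1.24), JUN (0.33) and ATF3 (1.28). In the order above, the 5 lists had 19, 18, 10, 12 and 20 called genes. The tested totals of the lists were 22, 23, 12, 12 and 23. With the near-identical libraries summed, 2 genes, 0 subunits and 0 genes of each list were called, with FOSL2 at 1.76 and FOSB at 4.08. DESeq2 called 3910 genes (27.5%), ATF3 (1.02), 6 of 22 bZIP partners, 5 of 23 MAP kinase genes and 1 of 12 stability genes. With limma-voom 1 of 23 MAP kinase genes was called, against 11.0% of all genes. Scaling to library totals only called ATF3 (1.23), moved the median log2 fold change of all genes from 0.05 to 0.17 and split the calls into 1583 higher and 416 lower, against 956 and 615 with TMM. With no filter 2457 of 25766 genes (9.54%) and 5 of 25 bZIP partners passed. A minimum of 10 CPM in 3 libraries left 928 called genes (12.1%) and 1 called subunit of 5 tested (FOSB and FOS were not tested).

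The replicate number as a block gave 3404 called genes (23.9%) and 4 of 7 subunits, including FOS (2.14) and ATF3 (1.13). It called 5 of 22 bZIP partners, 3 of 12 SRF cofactors and 1 of 12 stability genes. The deviations of same-numbered libraries from their group means correlated at 0.30, -0.23 and 0.22, and control 2 correlated best with heat 3 and not with its own number. The signs follow the split of control 1 and heat 3 from the other libraries. These values thus cannot decide whether a number marks a shared animal or culture, which the labels do not say. Depth limits FOSB and BATF3, whose controls held 4 and 8 reads in all.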
